A study of Mus musculus with 14 samples.

Results

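The insulin-like growth factor (IGF) genes of the fetal mouse were followed on 14 two-colour arrays: the ligands Igf1 and Igf2, the receptors Igf1r and Igf2r, and the binding proteins Igfbp1 to Igfbp6. The members were every probe whose single gene symbol in the platform annotation was 1 of these 10 names, out of 15094 singly named genes. They were 12 probes of 21582, since Igf1r had 3 (AF056187, AK020732 and M33422) and each other gene 1, and all 12 passed the filter on missing values. In the alcohol-fed group (n = 7), C57Bl6 mothers were exposed to ethanol at about 180 to 200 mg/dl between gestational days 15 and 18. Mothers of the pair-fed group (n = 7) were given maltose dextrin in its place, a sugar named maltose dextrose in some of the labels. The untreated control was total RNA pooled from 7 ad libitum animals, which 1 label calls weight matched. Fetuses of both groups were delivered on gestational day 19. The protocol speaks of 4 days of exposure and the titles of 5, no source used here names the tissue, and no label ties a sample to a litter. The p-values therefore cover sample-to-sample spread alone, part or all of which may be technical.

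Igf1 and Igf2 are small secreted hormones, related to insulin, that drive growth before birth. Both signal through Igf1r, a receptor tyrosine kinase, whereas Igf2r, the cation-independent mannose 6-phosphate receptor, takes up Igf2 and delivers it to lysosomes. The binding proteins hold the ligands in blood and tissue and set how much of them reaches the receptors, and proteases such as Pappa release the ligands again. In the mouse fetus Igf2 is expressed from the paternal allele and Igf2r from the maternal one, and the fetal liver is a known source of Igf2, Igfbp1 and Igfbp2.

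Each array carried a sample in Cy5 and the ad libitum pool in Cy3, and the deposited value is read here as the log2 ratio of sample over pool. That direction follows the order of the channels and is likely, but it is not stated, and no dyes were swapped. If it ran the other way, every rise and fall against the pool would exchange, and so would the sign of every alcohol-fed minus pair-fed difference. A mean ratio against 0 is the comparison with the pool, which counts as 1 control sample and leaves out the spread among ad libitum animals and any dye effect. No signal column was used, so brightness over background is unknown, and in bulk RNA fewer cells of a type and less RNA per cell cannot be told apart. Exact zeros and values at the table maximum were read as placeholders and left out. They were 2.57% to 14.6% of an array, and 9 of the 168 member values. Values below are log2 ratios centred on the array median, and correlations between arrays ran from 0.257 to 0.692 across probes.

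The 250 bases before the RefSeq start (assembly GRCm38.p6) are shown for 3 binding protein genes that passed the test against the pool in both groups, 2 of them lower and 1 higher. Capitals mark matches on either strand to the TATA box (TATAAA), the CCAAT box (CCAAT), the GC box (GGGCGG), the core of the insulin response element (CAAAACA) or the cyclic AMP response element (TGACGTCA). None of the motifs overlapped another here. Igfbp1 lies at chr11:7197537-7197786 on the plus strand, Igfbp2 at chr1:72824230-72824479 on the plus strand (the first of its 2 listed starts) and Igfbp5 at chr1:72874866-72875115 on the minus strand.
Igfbp1: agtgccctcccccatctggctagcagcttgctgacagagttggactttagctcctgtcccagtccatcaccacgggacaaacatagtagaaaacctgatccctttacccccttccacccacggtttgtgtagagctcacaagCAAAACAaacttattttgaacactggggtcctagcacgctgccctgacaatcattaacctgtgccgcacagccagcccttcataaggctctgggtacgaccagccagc
Igfbp2: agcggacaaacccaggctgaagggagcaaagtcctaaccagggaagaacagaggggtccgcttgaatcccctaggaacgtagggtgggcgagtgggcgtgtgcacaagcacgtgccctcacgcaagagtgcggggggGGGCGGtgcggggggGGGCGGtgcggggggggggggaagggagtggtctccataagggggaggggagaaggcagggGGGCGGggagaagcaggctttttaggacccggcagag
Igfbp5: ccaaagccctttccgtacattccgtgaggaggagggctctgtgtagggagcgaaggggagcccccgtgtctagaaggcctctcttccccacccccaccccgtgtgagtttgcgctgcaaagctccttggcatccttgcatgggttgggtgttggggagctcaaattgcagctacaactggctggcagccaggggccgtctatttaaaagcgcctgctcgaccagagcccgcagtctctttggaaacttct
The Igfbp1 window held CAAAACA with its first base 108 bases before the start, and 5.56% of the 32851 windows of this length in the table held that motif. The Igfbp2 window held GGGCGG at 113, 98 and 37 bases before the start, a motif present in 32.7% of windows. The Igfbp5 window held none of the letters searched. TATAAA occurred in 12.4% of windows, CCAAT in 33.8% and TGACGTCA in 1.55%. Such a match describes the letters and not a site in use.

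In alcohol-fed fetuses Igf1 was 5.61-fold lower than in the ad libitum pool, Igf2 6.15-fold, Igfbp2 5.49-fold and Igfbp1 3.27-fold, 1 of the 3 Igf1r probes was 2.11-fold lower, and Igfbp5 was 1.95-fold higher. In pair-fed fetuses Igf1 was 5.26-fold lower, Igfbp1 4.52-fold and Igfbp2 3.13-fold, with Igfbp5 2.39-fold higher. No member passed the test between alcohol-fed and pair-fed fetuses. With limma and Benjamini-Hochberg adjustment over 20876 probes, 6 of 12 member probes were called for alcohol-fed fetuses, with 5 lower and 1 higher, where 23.5% of all probes were called (8.02% higher, 15.5% lower). In the pair-fed group 4 of 12 were called, 1 higher and 3 lower, against a background of 21.3% (7.86% higher, 13.5% lower). The median over the 12 probes was -0.61 in the alcohol-fed group, beside 0.01 over all probes tested, and -0.12 in the pair-fed group, beside -0.03. Both comparisons use the same pool, so their values are given side by side and are not independent of each other.

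**Figure D1:**
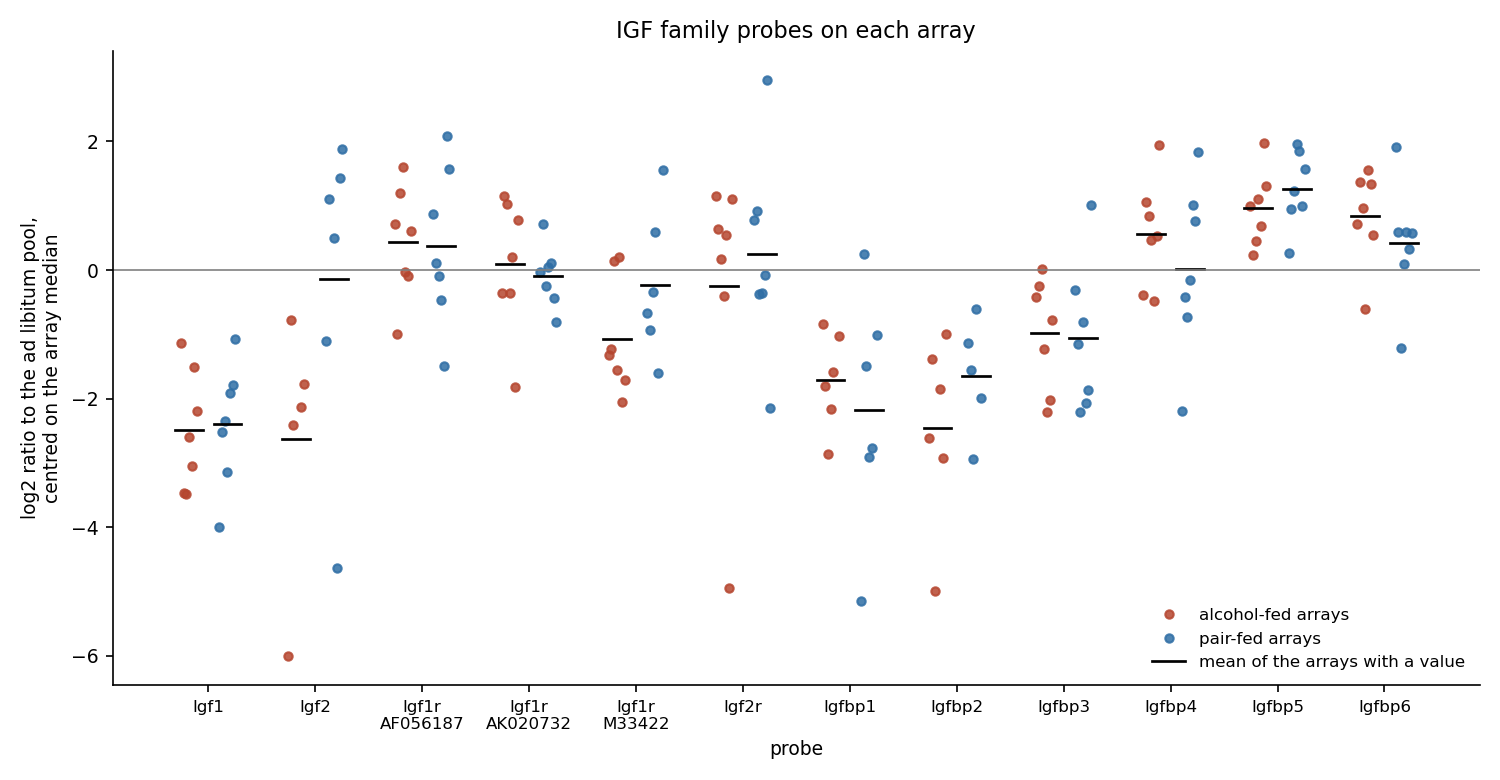
Centred log2 ratio to the ad libitum pool (vertical axis) of each IGF family probe (horizontal axis) on every array, alcohol-fed arrays in red to the left of pair-fed arrays in blue, with a bar at the mean. All 14 points of Igf1 lie below 0 and all 14 of Igfbp5 above it, while Igf2 spreads between -6.00 and 1.88.

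Igf1, the ligand that carries much of the action of growth hormone after birth and supports fetal growth before it, was below the pool on every array. Its ratios in alcohol-fed fetuses ran from -3.48 to -1.13 with a median of -2.59. In pair-fed fetuses they ran from -4.00 to -1.07 with a median of -2.34. The groups overlapped almost entirely. Among the 14666 probes measured on each of the 14 arrays, 5.1% were below 0 throughout, as Igf1 was. The mean was -2.49 ± 0.36 in the alcohol-fed group (SE, limma adjusted p = 8.4e-05) and -2.39 ± 0.36 in the pair-fed group (limma adjusted p = 0.000134). In each group the exact sign-flip permutation p was 0.0156, the smallest that 7 arrays allow. Ranked among all probes of its own array, Igf1 stood at a median percentile of 7.25 in alcohol-fed and 7.06 in pair-fed fetuses (92.75 and 92.94 if the ratio ran the other way).

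Igf2, the main growth-promoting ligand of the fetus, had values on 5 alcohol-fed and 6 pair-fed arrays. In alcohol-fed fetuses they were -6.00, -0.78, -2.41, -2.13 and -1.78, on arrays 1, 2, 3, 6 and 7. In pair-fed fetuses they were -1.11, 1.10, 0.50, -4.64, 1.43 and 1.88, on arrays 1, 2, 4, 5, 6 and 7. All 5 alcohol-fed values were below 0, while the pair-fed group held 4 values above 0 and the low value of array 5, so that the groups overlapped. The mean was -2.62 ± 0.83 in the alcohol-fed group (SE, limma adjusted p = 0.0331) and -0.14 ± 0.75 in the pair-fed group (limma adjusted p = 0.913). With 5 arrays the exact permutation p cannot go below 0.0625, the value found for the alcohol-fed group. The call against the pool was lost without alcohol-fed array 1, 3, 6 or 7 (limma adjusted p up to 0.136), without array 1 the mean was -1.78, and with placeholders kept as measurements the adjusted p was 0.051. The within-group SD of Igf2, 2.25, was larger than that of 97.8% of the probes tested.

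Igf1r, through which both ligands signal, was read by 3 probes, of which 1 was called and in 1 group. Probe M33422 ran from -2.05 to 0.20 with a median of -1.32 in alcohol-fed fetuses. In pair-fed fetuses it ran from -1.60 to 1.56 with a median of -0.50, on 6 arrays. Its mean was -1.07 ± 0.37 in the alcohol-fed group (SE, limma adjusted p = 0.0464) and -0.23 ± 0.40 in the pair-fed group (limma adjusted p = 0.713). This call was lost with 7 of the 14 arrays left out in turn (limma adjusted p up to 0.117). Those were alcohol-fed arrays 1, 2, 4, 6 and 7 and pair-fed arrays 1 and 3. The call was also lost under 5 other settings, among them the values as deposited and quantile normalization. The exact permutation p of the alcohol-fed group was 0.0625 for M33422, where 0.0156 was possible.

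The other Igf1r probes did not pass. AF056187 averaged 0.43 ± 0.39 in alcohol-fed and 0.37 ± 0.39 in pair-fed fetuses (SE, limma adjusted p = 0.433 and 0.515). AK020732 averaged 0.09 ± 0.32 in alcohol-fed and -0.09 ± 0.32 in pair-fed fetuses (limma adjusted p = 0.859 and 0.863). Across arrays the probes had Pearson correlations of -0.228 (AF056187 with AK020732, 14 arrays), 0.285 (AF056187 with M33422, 13 arrays) and 0.0503 (AK020732 with M33422, 13 arrays), as a description of probes that share their arrays. Averaged over its probes, Igf1r stood at -0.19 ± 0.28 in alcohol-fed and 0.07 ± 0.28 in pair-fed fetuses (limma adjusted p = 0.644 and 0.883), so no direction can be given for the gene.

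Igf2r, the receptor that clears Igf2, did not differ from the pool past the threshold in either group. Its ratios ran from -4.94 to 1.15 in alcohol-fed fetuses, with a median of 0.55. In pair-fed fetuses they ran from -2.14 to 2.96, with a median of -0.08. The lowest value came from alcohol-fed array 6, where the other 6 arrays of that group lay between -0.40 and 1.15. The mean was -0.25 ± 0.61 in the alcohol-fed group (SE, limma adjusted p = 0.793) and 0.25 ± 0.61 in the pair-fed group (limma adjusted p = 0.803). Without alcohol-fed array 6 the alcohol-fed mean was 0.54 (limma adjusted p = 0.418). The within-group SD of Igf2r was 1.87, above that of 93.8% of probes, and 1.22 without that array.

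**Figure D2:**
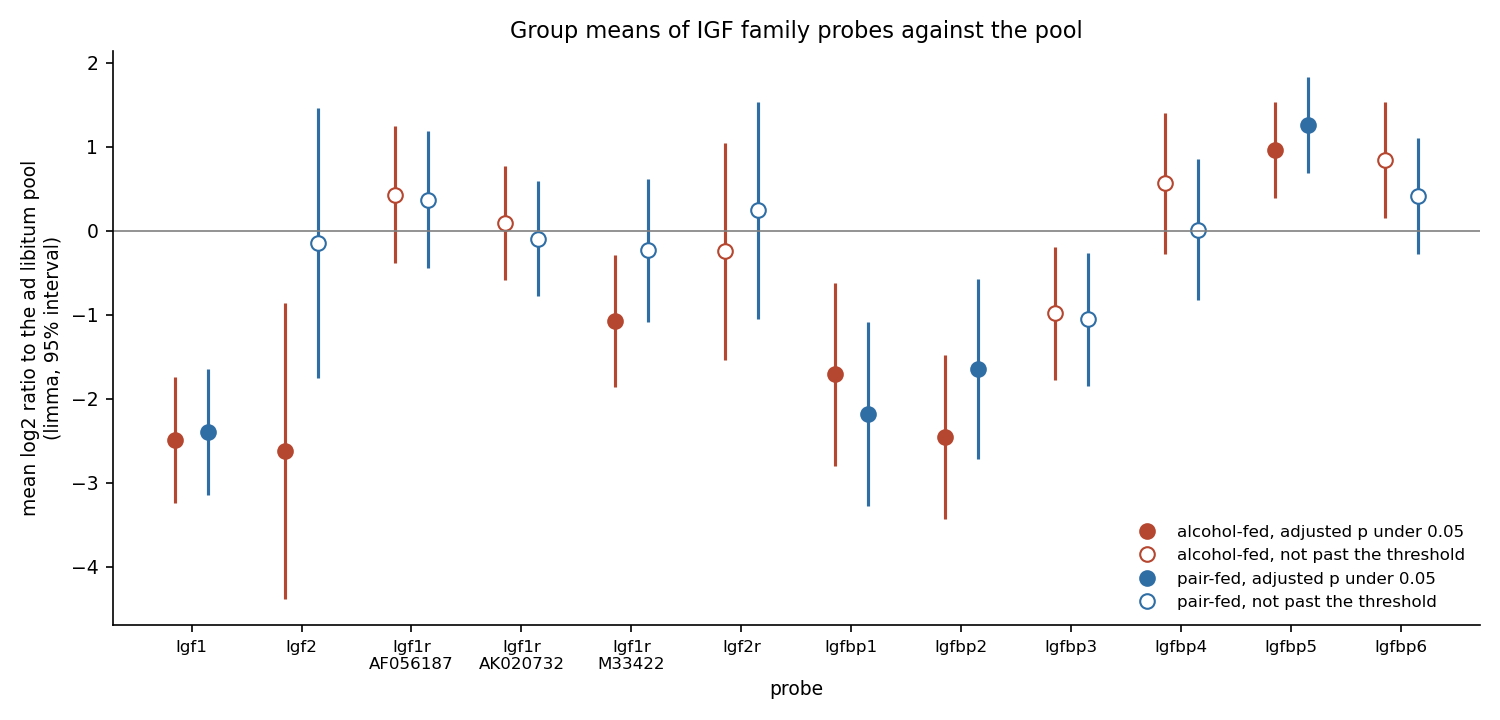
Mean log2 ratio to the ad libitum pool with its 95% limma interval (vertical axis) for each probe (horizontal axis), alcohol-fed in red to the left of pair-fed in blue, filled where the adjusted p was under 0.05. Filled points of both groups lie below 0 for Igf1, Igfbp1 and Igfbp2 and above 0 for Igfbp5, while Igf2 and Igf1r M33422 are filled only for the alcohol-fed group.

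Igfbp1, a binding protein made largely by liver and known to be raised by fasting and lowered by insulin, was below the pool on 11 of 12 arrays with a value. In alcohol-fed fetuses its ratios were -0.84, -1.80, -2.86, -2.16, -1.59 and -1.03, on arrays 1 to 5 and 7. In pair-fed fetuses they were -5.14, 0.26, -1.49, -2.91, -2.76 and -1.02, on the same numbers. The pair-fed values enclosed the alcohol-fed ones, and pair-fed array 2 held the only ratio above 0. The mean was -1.71 ± 0.52 in the alcohol-fed group (SE, limma adjusted p = 0.0263) and -2.18 ± 0.52 in the pair-fed group (limma adjusted p = 0.0081). The alcohol-fed call was lost without alcohol-fed array 2, 3 or 4 (limma adjusted p up to 0.0811). Leaving out any array in turn kept the pair-fed call, whereas the exact permutation p of the pair-fed group was 0.0625.

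Igfbp2, a binding protein abundant in fetal tissues, was below the pool on all 11 arrays with a value. Its ratios in alcohol-fed fetuses were -2.61, -1.38, -4.99, -1.85, -2.92 and -0.99, on arrays 1, 2, 3, 5, 6 and 7. In pair-fed fetuses the 5 values were -1.14, -1.56, -2.94, -0.60 and -1.99, on arrays 1, 2, 3, 4 and 6. The groups overlapped, and the lowest value of each came from array 3. The mean was -2.46 ± 0.46 in the alcohol-fed group (SE, limma adjusted p = 0.0017) and -1.65 ± 0.50 in the pair-fed group (limma adjusted p = 0.031). The alcohol-fed call held in every alternative that tested this probe. The pair-fed call was lost without pair-fed array 2, 3 or 6 (limma adjusted p up to 0.101) and under 5 other settings, among them the values as deposited.

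Igfbp5, a binding protein of muscle, bone and other connective tissues, was above the pool on all 14 arrays, as were 3.83% of the probes with a value on every array. Its ratios ran from 0.23 to 1.98 with a median of 0.99 in alcohol-fed fetuses. In pair-fed fetuses they ran from 0.27 to 1.96 with a median of 1.23. The groups overlapped, and the within-group SD of 0.587 was above that of only 7.6% of probes. The mean was 0.96 ± 0.27 in the alcohol-fed group (SE, limma adjusted p = 0.0179) and 1.26 ± 0.27 in the pair-fed group (limma adjusted p = 0.00382). The alcohol-fed call was lost without alcohol-fed array 6 (limma adjusted p = 0.0528) and without the 3 arrays with most placeholders (limma adjusted p = 0.051).

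Igfbp3, the main carrier of IGFs in adult serum, had 12 of 14 ratios below 0 and did not pass in either group. It averaged -0.98 ± 0.38 in alcohol-fed and -1.06 ± 0.38 in pair-fed fetuses (SE, limma adjusted p = 0.0653 and 0.053). It passed in the pair-fed group without alcohol-fed array 6 or pair-fed array 7 and under 6 other settings (limma adjusted p down to 0.0118), and in the alcohol-fed group without pair-fed array 7 or with that group fitted on its own arrays (down to 0.0366). Igfbp4, which holds IGFs away from the receptor until Pappa cuts it, averaged 0.57 ± 0.40 in alcohol-fed and 0.02 ± 0.40 in pair-fed fetuses (limma adjusted p = 0.306 and 0.982). Igfbp6, which prefers Igf2 over Igf1, was above 0 on 12 of 14 arrays. Its mean was 0.85 ± 0.33 in alcohol-fed and 0.41 ± 0.33 in pair-fed fetuses (limma adjusted p = 0.0699 and 0.384). The alcohol-fed value of Igfbp6 passed without alcohol-fed array 4 or pair-fed array 3 and with quantile normalization or array weights (limma adjusted p down to 0.034).

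**Figure D3:**
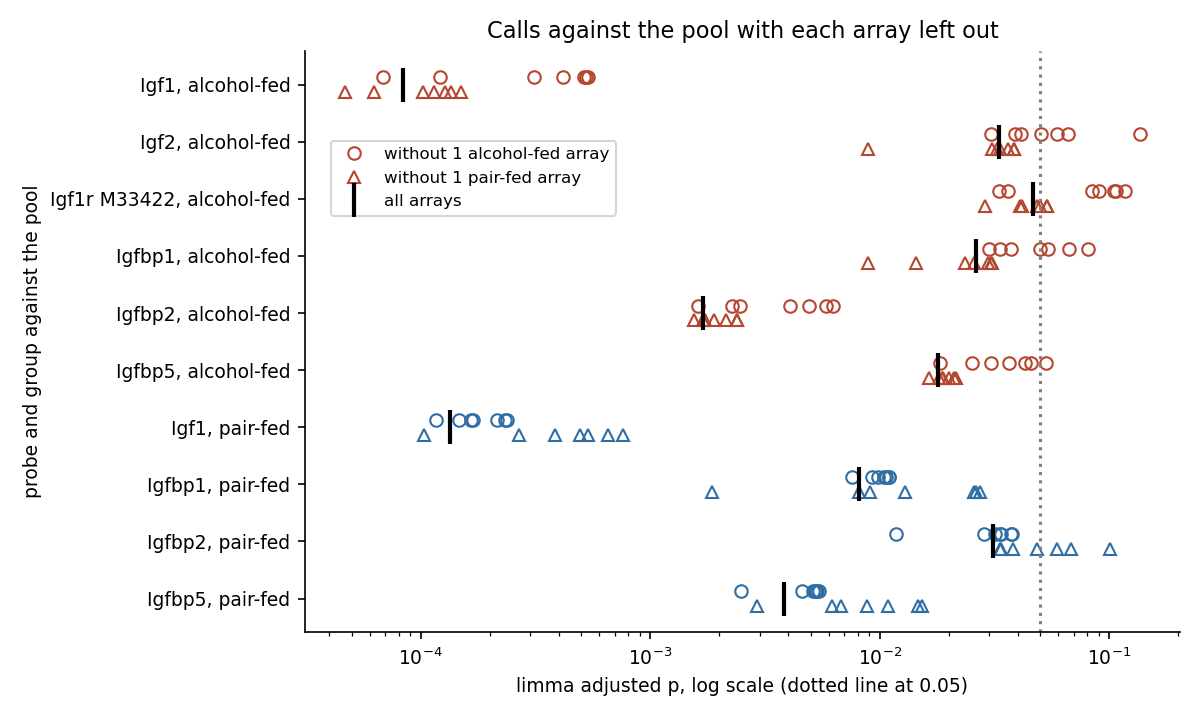
Limma adjusted p on a log scale (horizontal axis) of each member call against the pool (vertical axis), with all arrays as a bar, each alcohol-fed array left out as circles and each pair-fed array left out as triangles, red for alcohol-fed and blue for pair-fed calls. Igf1 stays left of the 0.05 line in both groups, at most at 0.000536 in the alcohol-fed group and 0.000764 in the pair-fed group, while Igf1r M33422 crosses it most often.

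**Figure D4:**
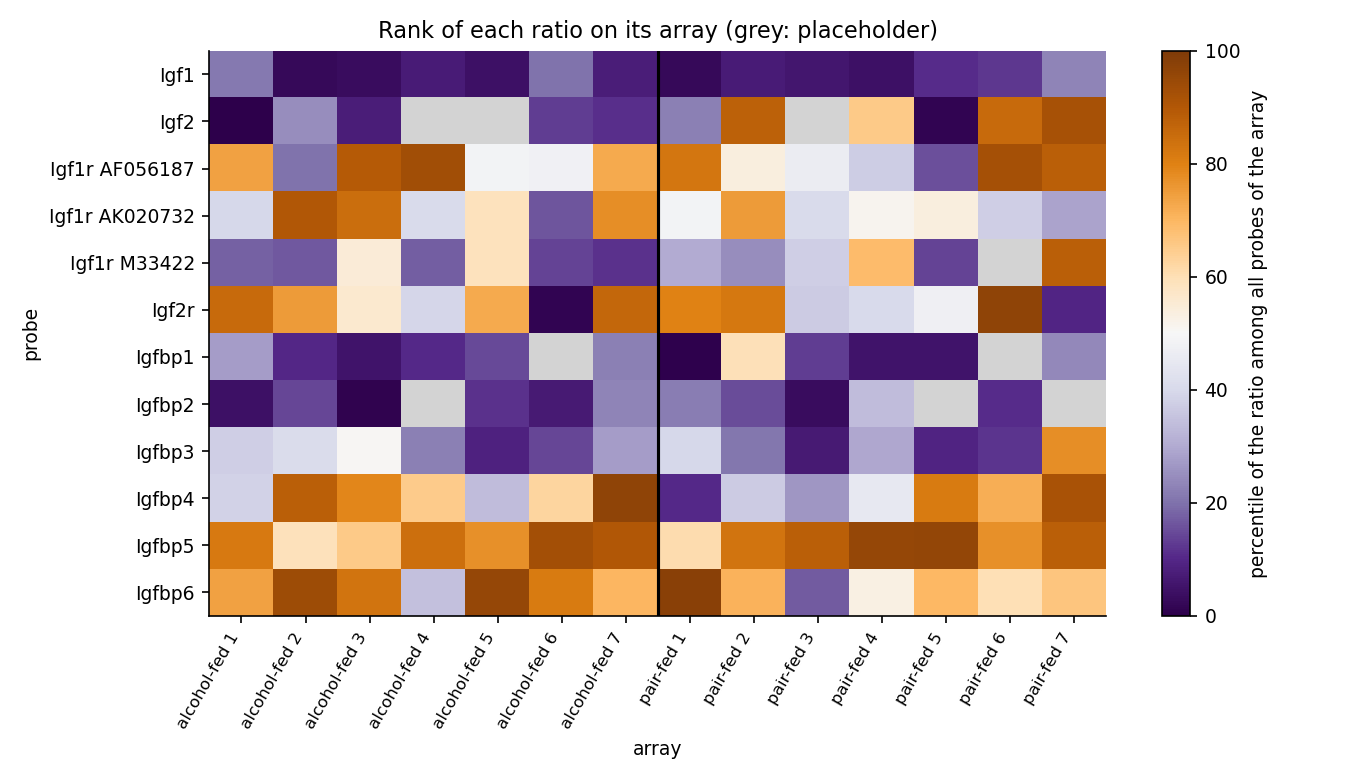
Percentile of each IGF family ratio among all probes of its array (colour, 0 to 100), with probes down the page and arrays across it, alcohol-fed arrays left of the line and pair-fed arrays right of it, and grey for placeholders. The Igf1 cells are dark purple to lilac throughout, none above 23.1 (none below 76.9 if the ratio ran the other way), while the Igf2r cells run from near 0 to near 100.

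The comparison of alcohol-fed with pair-fed fetuses sets ethanol against the maltose dextrin given in its place, and the pool cancels in it. None of the 12 member probes passed, and 0% of all 20876 probes did. At an unadjusted limma p under 0.05 there was 1 member, Igf2, beside 4.22% of all probes. The median difference over the members was -0.02, beside 0.01 over all probes. The groups overlapped for every member. The share of all probes whose groups overlap was not counted, so this cannot be read as a trait of the members.

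Igf2 differed by -2.48 ± 1.12 between alcohol-fed and pair-fed fetuses (SE, 95% interval -4.87 to -0.10), and the limma p was 0.0423 before and 0.9996 after adjustment. By the exact two-sided permutation test p was 0.108, and the difference ran from -3.38 to -1.64 with each array left out. For Igf1 the difference was -0.09 ± 0.50, with an interval of -1.15 to 0.97. Igfbp1 differed by 0.47 ± 0.73, Igfbp2 by -0.81 ± 0.68 and Igfbp5 by -0.29 ± 0.39. The largest difference among the receptor probes was -0.84 ± 0.55, for Igf1r M33422. The intervals of 7 of the 12 probes stayed within a 4-fold difference both ways and those of 0 within 2-fold, with half-widths from 0.81 to 2.38. A difference of 2-fold in at least 1 direction was thus within the interval of every member, and the missed threshold does not show that the groups were alike.

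**Figure D5:**
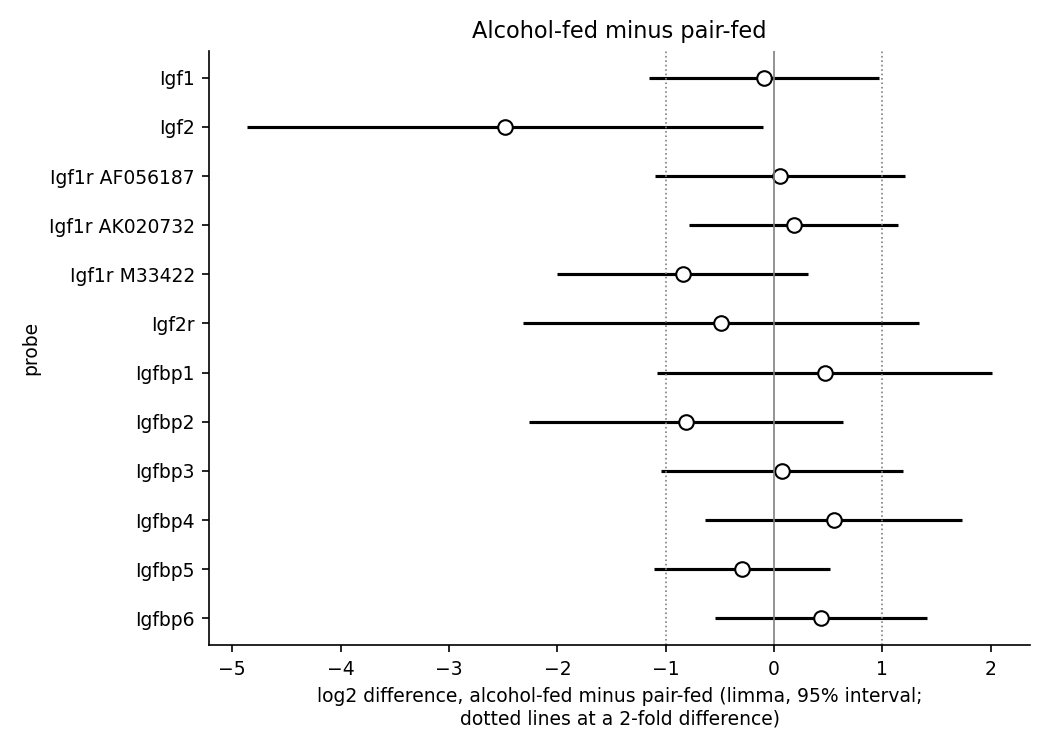
Difference of mean log2 ratio, alcohol-fed minus pair-fed, with its 95% limma interval (horizontal axis) for each probe (vertical axis), and dotted lines at a 2-fold difference. Only the Igf2 interval, -4.87 to -0.10, lies on 1 side of 0, and no interval stays between the dotted lines.

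The wider pathway was read from a list of 56 genes, of which 48 were tested on 54 probes. For alcohol-fed fetuses 10 genes were lower than the pool, 2 higher and 2 called in both directions by different probes. In the pair-fed group 10 were lower, 2 higher and 1 both. As probes, 29.6% were called in the alcohol-fed and 25.9% in the pair-fed group, beside 23.5% and 21.3% of all probes, and none between the groups. Median ratios were -0.11 in the alcohol-fed and -0.29 in the pair-fed group.

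The 6 pathway probes with the smallest p belonged to Stat5a, Pappa, Igf2bp1, Adam12, H19 and Adam28 in both groups, and all were lower than the pool (limma adjusted p at most 0.000865 in the alcohol-fed and 0.000376 in the pair-fed group). Stat5a, which with Stat5b transmits the growth hormone signal to Igf1 in liver, averaged -4.86 ± 0.38 in alcohol-fed and -4.06 ± 0.38 in pair-fed fetuses (SE, limma adjusted p = 5.1e-08 and 5.6e-07). Pappa, the protease that cuts Igfbp4, averaged -4.43 ± 0.45 in alcohol-fed and -5.49 ± 0.45 in pair-fed fetuses at probe AF258461. At its other probe, AK018411, the values were 0.89 ± 0.31 in alcohol-fed fetuses (limma adjusted p = 0.0478) and 0.36 ± 0.31 in pair-fed fetuses (limma adjusted p = 0.435), so no direction can be given for Pappa as a gene. H19, the untranslated RNA that shares its imprinting control region with Igf2, averaged -2.88 ± 0.47 in alcohol-fed and -2.84 ± 0.47 in pair-fed fetuses. Igf2bp1, which binds the Igf2 messenger, averaged -2.33 ± 0.30 in alcohol-fed and -1.89 ± 0.30 in pair-fed fetuses. Adam12, a protease that cuts Igfbp3 and Igfbp5, averaged -1.91 ± 0.26 in alcohol-fed and -2.08 ± 0.26 in pair-fed fetuses, and Adam28, a related protease, -1.67 ± 0.30 in alcohol-fed and -1.85 ± 0.30 in pair-fed fetuses.

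Among insulin and its adaptors, genes were called in both directions. Ins2, a mouse insulin gene, averaged -1.54 ± 0.46 in alcohol-fed and -2.06 ± 0.51 in pair-fed fetuses (SE, limma adjusted p = 0.027 and 0.0108). Irs1, the adaptor that docks on Igf1r and the insulin receptor, averaged -1.34 ± 0.47 in alcohol-fed and -1.72 ± 0.50 in pair-fed fetuses (limma adjusted p = 0.0469 and 0.0232). Irs2, an adaptor of the same family, averaged 0.75 ± 0.30 in alcohol-fed and 1.37 ± 0.30 in pair-fed fetuses (limma adjusted p = 0.0765 and 0.0039), so it was higher than the pool in the pair-fed group. Irs3 averaged 0.29 ± 0.53 in alcohol-fed and 0.04 ± 0.53 in pair-fed fetuses (limma adjusted p = 0.718 and 0.968). Irs4 averaged -1.44 ± 0.41 in alcohol-fed and -1.01 ± 0.45 in pair-fed fetuses (limma adjusted p = 0.0197 and 0.114). Igfals, the subunit that keeps Igfbp3 and its ligand in serum, averaged -0.21 ± 0.28 in alcohol-fed and -0.86 ± 0.28 in pair-fed fetuses (limma adjusted p = 0.592 and 0.0353). Insr, the insulin receptor, did not pass in either group.

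Markers of cell types that make these genes were read from the same fit. Of 18 hepatocyte marker genes tested, 6 were lower and 0 higher than the pool in the alcohol-fed group, and 6 were lower and 1 higher in the pair-fed group. As probes, 28.6% were called in the alcohol-fed and 33.3% in the pair-fed group, beside 23.5% and 21.3% of all probes, and the list medians were -0.04 and -0.52. The mean of the hepatocyte list ran from -1.20 to -0.15 over alcohol-fed arrays and from -0.81 to -0.33 over pair-fed arrays. Its genes differed among themselves. Rbp4, Apoa2, Apoh, Apob and Trf at probe J03299 were called lower in both groups, and Ahsg in the pair-fed group alone. The other Trf probes were not called. Rbp4 averaged -2.40 in alcohol-fed and -2.62 in pair-fed fetuses. Afp, not called, averaged -0.26 in alcohol-fed and -0.20 in pair-fed fetuses. Apoa1, not called, averaged -0.01 in alcohol-fed and 0.02 in pair-fed fetuses. Hnf4a was called lower at probe AF015275 in the alcohol-fed group (-2.60) and higher at probe NM_008261 in the pair-fed group (1.12). The part of liver content in the values of Igf1, Igfbp1 and Igfbp2 was not tested. Of 13 skeletal muscle marker genes, 6 were lower and 1 higher in the alcohol-fed group and 5 lower and 3 higher in the pair-fed group (40% and 45% of its probes). For 14 fibroblast and matrix genes the counts were 4 lower and 2 higher in the alcohol-fed group and 2 lower and 1 higher in the pair-fed group (35.3% and 17.6%). Of 8 trophoblast and placenta genes, 3 were lower and 3 higher in the alcohol-fed group and 1 was lower and 1 higher in the pair-fed group (50% and 16.7%). Of 13 brain genes, 3 were lower and 1 higher in the alcohol-fed group, and in the pair-fed group 0 were lower, 2 higher and 1 both (23.5% of probes in each group, near the share of all probes).

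The genes whose ratios varied most like those of Igf1 over 14 arrays were Stau1 (Pearson r = 0.931), Syk (0.895) and Kcnip4 (0.879). For Igf2r they were Gdf1 (0.939, 14 arrays), Hsd17b1 (0.933, 14 arrays) and Cp (0.928, 13 arrays). The Igf2r ratios include the -4.94 of alcohol-fed array 6, and likeness without that array was not tested. For Igf1r the closest was Smpd4 at probe AF056187 (0.829), Atad3aos at AK020732 (0.926) and Ccdc74a at M33422 (0.917), so the probes of this gene had no nearest gene in common. Igf2 had too few arrays with a value, 11 where 12 were asked for. These are the highest correlations among many probes, given as descriptions over arrays that share the pool.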

How the data were processed

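Per the labels' protocols, each of 14 two-colour arrays carried a sample labelled Cy5 and the ad libitum pool labelled Cy3. The authors deposited 1 value per probe and array, read here as a log2 ratio of sample over pool because values recur at ratios of 2, 0.5 and 0.75 and stop at 0.001 and 1e+05. No source used here names the scanner or the normalization, and scale, centring and direction are not stated.

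Exact zeros and values at the table maximum were set to missing, each array was centred on its median, and probes measured on 4 or more arrays per group were tested (20876, with 706 left out). All probes and arrays entered 1 fit in limma 3.58.1 (lmFit and eBayes, R 4.3.3), two-sided, Benjamini-Hochberg adjusted p under 0.05 over all probes. An SE is limma's, from a variance shared by both groups, so leaving out an array of 1 group can change a call in the other. Without centring, the median ratio of all probes was 0.14 in the alcohol-fed and 0.09 in the pair-fed group, in place of 0.01 and -0.03. Permutation tests were exact, with label exchange between groups and sign flips against the pool. The fit was also run on simulated data with independent normal noise for each probe and array. Those data held no error of a shared pool, and no result here rests on them.

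No 2 arrays shared over 0.287% identical values, so each counted as 1 replicate. The labels number the arrays 1 to 7 in both groups. Deviations from the group means correlated over 0.1 in 2 of 7 same-numbered pairs, so the numbers were not taken to pair the samples.

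Every member probe is named, whatever its value. Of the pathway list up to 6 called probes with the smallest p are named per comparison. Ins2, Irs1 to Irs4, Igfals, Insr, Gh, Ghrh, Ghrhr, Ghr, Jak2, Socs2, Socs3 and the hepatocyte markers named were chosen after their values were seen. Likeness takes the 3 most correlated probes with values on at least 12 shared arrays, of which the closest is named for Igf1r. The members and lists were chosen with earlier results of these data known. Names come from the platform annotation (16635 probes with 1 symbol, 113 with several, 4834 with none). Promoter windows are RefSeq's and were matched by symbol for all 10 genes. The start listed for Igf1 lies inside the gene and its window is not shown. Other settings tried are other scalings, placeholder handling, array weights, a replicate block, separate fits and leaving out arrays.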

Additional observations from a re-analysis of the deposited data

Results flagged for a closer look

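In 28 groups of 7 or fewer values examined, 2 held a value far from the rest, and chance alone sets apart about 1 group in 20. The Igf2r ratio of alcohol-fed array 6 was -4.941, and its gap to the nearest array was 0.746 of the group's range, above Dixon's critical value of 0.568 for 7 arrays. On the same array 7.91% of all values were placeholders, a gap of 0.631 of the range of the alcohol-fed arrays. Whether the 2 are related was not tested.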

How the results depend on the processing

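Of 903 repeats of a member comparison under another setting, 815 kept their direction and their side of the threshold, 30 calls were lost and 14 gained. The count of called members in the alcohol-fed group, 6 with all arrays, was 2 where only the 8 member probes without placeholders on any of the 14 arrays were tested, since fewer probes entered, and ran from 3 (without alcohol-fed array 6) to 7 with each array left out, of which the cause was not tested. In the pair-fed group 2 members passed by the exact permutation test at an unadjusted p under 0.05, in place of 4. Igfbp2, on 5 arrays, had an exact permutation p of 0.0625, the smallest possible there. Igfbp1, on 6 arrays, also had an exact permutation p of 0.0625, where 0.0312 was possible. With a replicate block 5 members passed in the alcohol-fed and 4 in the pair-fed group, and 0 between the groups. It lost the calls of Igf1r M33422 in the alcohol-fed and Igfbp2 in the pair-fed group, gained that of Igfbp3 in the pair-fed group and turned Igf2 in the pair-fed group to 0.0361. The Igf2 difference between alcohol-fed and pair-fed fetuses was -3.5 with the block, in place of -2.48, with a limma p of 0.000308 before and 0.999 after adjustment. With the block this difference rests on arrays 1, 2, 6 and 7, the numbers with an Igf2 value in both groups. Pair-fed array 5, at -4.64, does not enter it, nor do alcohol-fed array 3 and pair-fed array 4.

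All changes of sign, that of Igf2 with the block included, concerned values that had not passed the test, and the cause was not tested. Between alcohol-fed and pair-fed fetuses, Igf2r was 0.0271 with array weights. Without the 3 arrays with most placeholders, an alternative chosen after seeing the data, Igf1 was 0.132 and Igf2r 0.359. With each array left out, Igf1 ran from -0.36 to 0.128, Igf1r AF056187 from -0.252 to 0.342, Igf2r from -0.888 to 0.292, Igfbp1 from -0.126 to 0.954 and Igfbp3 from -0.118 to 0.417. In the alcohol-fed group Igf2r was 0.0059 with quantile normalization, 0.22 with array weights and 0.538 without those 3 arrays, and ran from -0.477 to 0.538 with each array left out, as Igf1r AK020732 did from -0.0873 to 0.409. In the pair-fed group AK020732 was 0.0167 as deposited, 0.0313 with quantile normalization and 0.119 without those 3 arrays, Igfbp4 was -0.0782 with scale normalization, -0.217 with array weights and -0.498 without them, and Igf1r AF056187 was -0.211 without them. With each array left out there, Igf2 ran from -0.543 to 0.76, AK020732 from -0.225 to 0.0272, M33422 from -0.589 to 0.0438, Igf2r from -0.208 to 0.643 and Igfbp4 from -0.287 to 0.383. Brightness over background is unknown and the number of arrays limits the precision.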

Other observations

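The growth hormone axis upstream of Igf1 is held by several genes of the pathway list. Ghr, the growth hormone receptor, averaged 0.53 ± 0.29 in alcohol-fed and 0.31 ± 0.29 in pair-fed fetuses against the pool (SE, limma adjusted p = 0.177 and 0.455). Jak2, the kinase bound to that receptor, averaged 0.33 ± 0.34 in alcohol-fed and -0.09 ± 0.34 in pair-fed fetuses (limma adjusted p = 0.497 and 0.87). Socs2, which damps growth hormone signalling, averaged 0.02 ± 0.32 in alcohol-fed and -0.26 ± 0.32 in pair-fed fetuses (limma adjusted p = 0.974 and 0.586). Gh averaged -0.41 ± 0.49 in alcohol-fed and -0.85 ± 0.49 in pair-fed fetuses (limma adjusted p = 0.561 and 0.217). In the same order of groups Ghrh averaged 0.66 and -0.13, Ghrhr 0.90 and -0.35 and Socs3 0.75 and 0.11 (limma adjusted p at least 0.0797). None of these passed the test, beside the low Stat5a ratios of both groups.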
